A study of Drosophila melanogaster with 6 samples.

Results

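The basement membrane that sheathes the fly brain was followed through 8 genes, with trol for Perlecan, Col4a1 and vkg for collagen IV, LanA, LanB1 and LanB2 for laminin, Ndg for nidogen, and SPARC. The genes were selected by function around trol, and trol itself was chosen from its transcript values in feminized against control males in these same libraries. The trol values in that comparison are therefore a description and carry no test. The 8 genes are 8 of 13453 genes in the table, and 31 of its 28071 transcripts belong to them, 16 of these to trol. All 31 transcripts are accounted for, and 25 passed the filter on low counts, 12 of them from trol.

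RNA came from whole dissected male brains with the BBB attached. The genotype SPG-GAL4/UAS-TraF, called feminized below, expressed the female form of Transformer under a moody GAL4 driver, active in the subperineurial glia (SPG) that make the tight barrier. The control genotypes were +/SPG-GAL4 with only the driver and +/TraF with only the transgene, called driver controls and transgene controls. Each genotype had 2 libraries, labelled as biological replicates, from at least 450 pooled brains of flies aged 4 to 5 days. All 3 genotypes share a w1118 background. Since whole brains were pooled, RNA of the SPG was measured together with that of all other brain cells. Values are estimated counts per transcript from Kallisto, which divides reads that fit several transcripts of a gene between them. They were summed per gene and scaled to the mean library, giving normalized counts. Library totals ranged from 32839081 to 37608924 estimated counts, and the 8 genes together took 0.200% to 0.246% of each library.

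A basement membrane is a sheet of secreted proteins outside the cell. Laminin trimers form a first network on the cell surface, and collagen IV forms a second, covalently linked network that gives the sheet its strength. Nidogen can bridge the networks, the heparan sulfate proteoglycan Perlecan fills and hydrates the sheet, and SPARC is a collagen-binding protein that collagen IV secretion and assembly depend on. Around the brain this sheet is called the neural lamella. It lies outside the perineurial glia and, in flies, hemocytes and fat body supply much of its material.

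Levels between genes were compared per transcript length, in TPM, that is counts per transcript length scaled to the same total in every library. SPARC was highest with a mean of 416 TPM over the 6 libraries (range 371 to 462), rank 403 of 13420 genes. Perlecan followed with 191 TPM (141 to 234), then Col4a1 with 155 TPM (133 to 168) and vkg with 143 TPM (121 to 155). The ranges of these neighbours overlapped for trol, Col4a1 and vkg, while SPARC stayed above all 3 in every library. A wide gap separated these from the laminin subunits, at 7.39 TPM for LanB1, 4.69 TPM for LanA and 3.48 TPM for LanB2. LanA and LanB2 overlapped in range, and so did LanA and LanB1. Ndg was lowest at 0.316 TPM (0.267 to 0.454).

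Subunits of one molecule kept near-constant ratios in the case of collagen IV. Col4a1 and vkg encode the chains that form the collagen IV trimer, and on chromosome 2L they lie head to head, with 2164 nt between the start of vkg-RA, the main vkg transcript, and that of Col4a1. The ratio of Col4a1 to vkg in TPM was between 1.02 and 1.15 in every library. The laminin ratios varied more. LanB1, a beta chain, exceeded LanB2, the gamma chain, by 1.94 to 2.54 times, and the ratio of LanA, an alpha chain, to LanB1 ran between 0.409 and 0.798.

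Perlecan is the heparan sulfate proteoglycan of the sheet. Its gene trol (FBgn0284408) covers 74968 nt on the minus strand of chromosome X, 2470460 to 2545427 in BDGP6.54. The trol gene sum was 48011 and 46196 normalized counts in feminized brains, against 38428 and 30956 in driver controls and 42699 and 30759 in transgene controls. Both feminized libraries lay above all 4 controls, and the means were 47104 and 35710 ± 5870 (SD, n = 4 controls), a fold of 1.32. On the log2 scale the fitted difference was 0.40, given as a description. Over all gene sums tested, 5.58% had both feminized libraries above the 4 controls and 8.15% had both below. Summed fat body markers were high in the same libraries as the trol sum, in both feminized ones (254 and 248 TPM) and in transgene control replicate 1 (253 TPM, against 215 to 225 TPM in the other controls), and their part in the trol value was not tested. The sum was nearly all apolpp, and the next most abundant marker, Lsp2, had another order, with 9.88 and 14.5 TPM in feminized brains, 14.6 and 13.5 TPM in driver controls and 9.04 and 12.8 TPM in transgene controls. In whole brains a gain of cells of a type and a gain of RNA per cell cannot be told apart, for this and every value that follows.

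**Figure D1:**
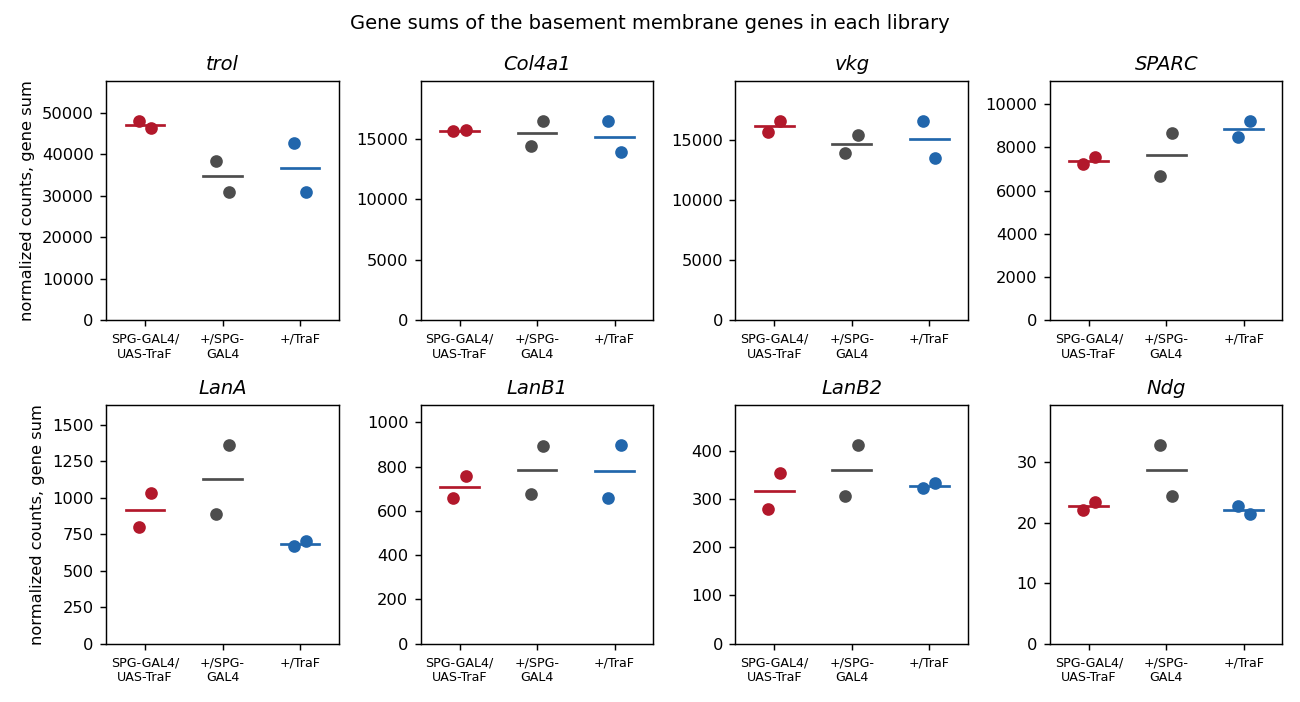
Gene sums of the 8 basement membrane genes in normalized counts (y axis, from 0) for SPG-GAL4/UAS-TraF, +/SPG-GAL4 and +/TraF males (x axis). Points are libraries and bars are means of 2. The feminized trol points (46196 and 48011) lie above the 4 controls, the highest of which is 42699, and in the other 7 genes the groups overlap.

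The excess of trol was carried by a pair of its transcripts. trol-RAL (FBtr0342811) had 3409 and 3556 normalized counts in feminized brains, 0 and 5.75 in driver controls and 0 and 0 in transgene controls. Those 5.75 normalized counts, 6 estimated counts, came from driver control replicate 2. Without that library the 3 other controls were all at 0, and the feminized mean of 3482 was at least 1115-fold higher than a floor of 3 counts per library. The transcript made up 7.10% and 7.72% of the trol sum in feminized brains and at most 0.0182% in any control.

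The main transcript, trol-RAS (FBtr0342818), had 31265 and 31301 normalized counts in feminized brains, against 24304 and 21718 in driver controls and 29072 and 20962 in transgene controls. Its share of the trol sum was 65.2% and 67.9% in feminized brains and 65.8% to 68.9% in controls, so it kept its place within the gene. Of the difference between the mean trol sums, trol-RAS made up 63.8% and trol-RAL 30.6%. Leaving trol-RAL out of the sum gave 44579 and 42521 in feminized brains and 31214 to 42887 in controls, groups that overlap, with a fold of 1.22. Leaving out both gave a fold of 1.05. These partial sums use size factors of the transcript table, under which the whole trol sum of a library differs by up to a few percent from the value above.

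**Figure D2:**
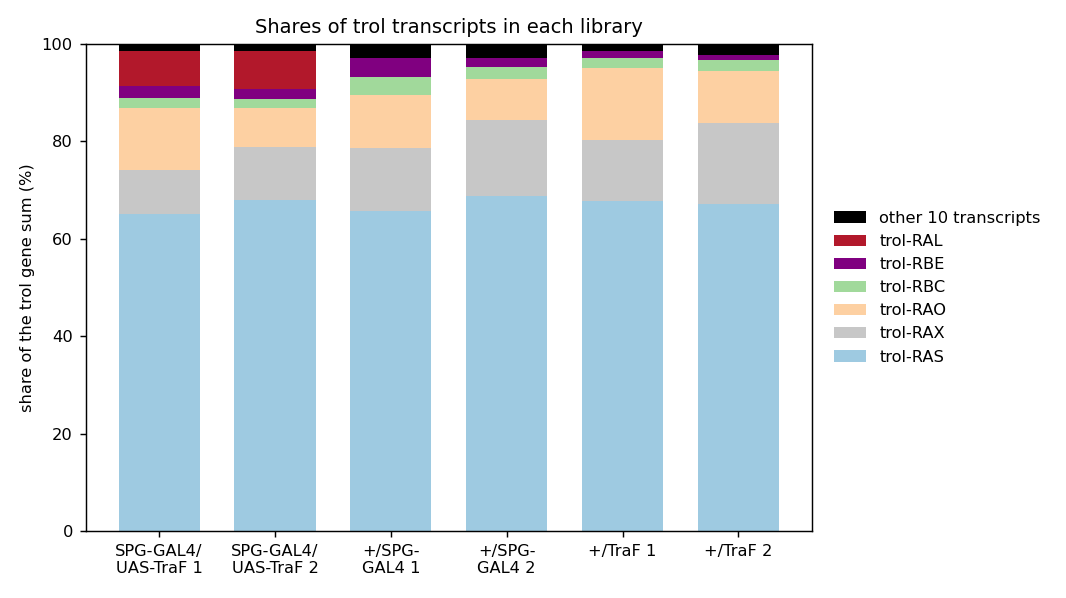
Share of the trol gene sum (y axis, percent) held by each transcript in the 6 libraries (x axis). Stacked colours are transcripts. The trol-RAL segment fills 7.10% and 7.72% in SPG-GAL4/UAS-TraF libraries and at most 0.0182% in the 4 controls, while trol-RAS holds 65.2% to 68.9% in all 6.

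In the annotation, trol-RAL has 31 exons, 11515 nt and a coding sequence of 11184 nt. It has no part of its own, with 0 exons, 0 bases and 0 of 30 junctions absent from the other trol transcripts of the table. Only the combination sets it apart. It differs from trol-RBE by lacking 1 coding exon of 30 nt (chromosome X, 2484218 to 2484247). From trol-RAS it differs by lacking 1 coding exon of 231 nt (2492655 to 2492885) and by a last exon of 187 nt in place of 735 nt, which is 548 nt shorter at the 3′ end. Its counts therefore rest on how Kallisto divided reads of shared sequence between related transcripts, a step whose error was not used here.

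The nearest relative also differed between libraries, though less. trol-RBE had 1190 and 955 normalized counts in feminized brains, 1424 and 592 in driver controls and 603 and 355 in transgene controls, with overlapping groups. Summed as the closest pair, trol-RAL and trol-RBE had 4599 and 4511 in feminized brains and 355 to 1424 in controls, a 6.11-fold ratio of means. Over all transcripts with the short 3′ end at 2471008, which are trol-RAK, trol-RAL, trol-RBB, trol-RBD and trol-RBE, the share of the trol sum was 10.6% and 11.0% in feminized brains, against 5.81% and 3.44% in driver controls and 2.59% and 2.66% in transgene controls. The groups of this share did not overlap, but the share includes the 7.10% and 7.72% of trol-RAL in feminized brains. How often such shares separate over all genes was not counted, for this share and those that follow. Of the others with this end, trol-RBE was the largest. It held 2.48% and 2.07% in feminized brains and 1.14% to 3.86% in controls, which overlap. The long 3′ end at 2470460 held 78.1% and 76.2% in feminized brains and 77.5% to 82.8% in controls. The 231-nt exon, in trol-RAK, trol-RAS and trol-RBB, held 66.1% and 69.0% in feminized brains and 67.7% to 70.3% in controls, with groups that overlap.

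**Figure D3:**
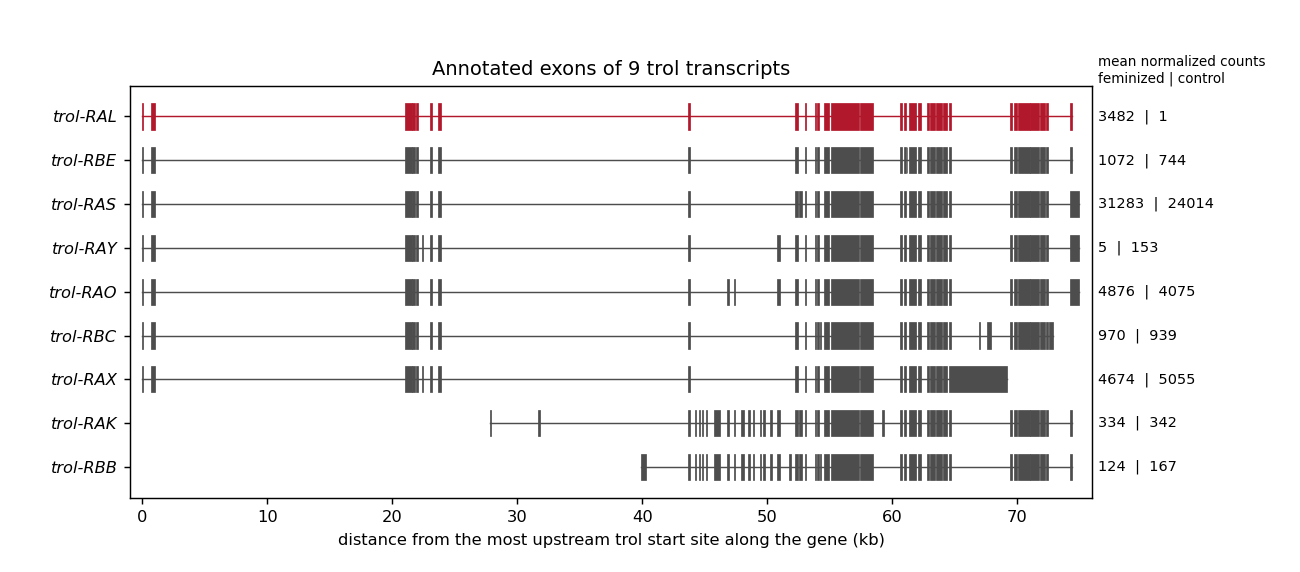
Annotated exons (boxes) of 9 trol transcripts against distance from the most upstream start site (x axis, kb), with mean normalized counts in feminized and control males at the right. trol-RAL (red) has the exons of trol-RBE except 1 of 30 nt, and a last exon of 187 nt where trol-RAS has 735 nt.

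The counts of trol-RAX and trol-RAO overlapped between the groups, and those of trol-RAY lay below the controls. trol-RAX ends in a long exon of 4650 nt and lacks the exons that code for the C-terminal part of the protein. In feminized brains it had 4343 and 5005 normalized counts and in controls 4739 to 5352, and its share was 9.05% and 10.9% in feminized brains, below the 12.5% to 16.7% of the controls. trol-RAO ranged widely in every genotype, with 6046 and 3706 normalized counts in feminized brains, 3995 and 2656 in driver controls and 6322 and 3328 in transgene controls. trol-RAY, which lacks 270 nt of trol-RAS and holds 354 nt that trol-RAS lacks, had 7.67 and 2.92 normalized counts in feminized brains, below 207 and 338 in driver controls and 18.7 and 49.6 in transgene controls. Its log2 fold change was -4.82, given as a description.

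The remaining tested trol transcripts were small, and in each of them the groups overlapped. trol-RBC had 1050 and 891 normalized counts in feminized brains and 665 to 1422 in controls. trol-RAK had 302 and 366 in feminized brains and 231 to 508 in controls, and trol-RBB had 136 and 111 in feminized brains and 125 to 197 in controls. These last transcripts, trol-RAK and trol-RBB, start further along the gene. The other 14 transcripts of the table share the start at 2545427 and held 98.1% to 99.1% of the trol counts in every library. Together trol-RAK and trol-RBB held 0.913% and 1.04% in feminized brains, below the 1.11% to 1.91% of the controls. trol-RBD, trol-RAQ and trol-RAW had at most 134 normalized counts in any library. Of the 4 trol transcripts that did not pass the filter, trol-RAT and trol-RAZ were at 0 in all libraries, trol-RAN had at most 17.3 normalized counts, and trol-RAV had 33.1 in feminized replicate 2 and 0 elsewhere. The annotation holds 9 further trol transcripts, which were not analysed here.

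An on-and-off pattern like that of trol-RAL was counted over all transcripts of the table, including those too low to meet it. The count is a description, since trol was chosen on this comparison. With at least 100 normalized counts in both feminized libraries and at most 10 in each of the 4 controls, 6 of 28071 transcripts qualified. They were trol-RAL, psq-RB, CG43867-RC, SERCA-RC, RalGPS-RD and CG43367-RD, of which trol-RAL was the most abundant. psq-RB, from a gene for a transcription factor, had 258 and 286 normalized counts in feminized brains and 0 in each control. The reverse pattern was found for 1 transcript, Eip78C-RA.

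Among other genes, the gene sums most like trol over the 6 libraries were those of N, CG5644, Ctl2, CG14989 and Rh50, with Pearson r of log2 CPM (here scaled to the mean library, with 1 count added before the log) of 0.99, 0.98, 0.98, 0.97 and 0.97 out of 7961 genes compared. N encodes the receptor Notch and had 3121 and 2982 normalized counts in feminized brains, against 2814 and 2517 in driver controls and 2959 and 2590 in transgene controls. Of the basement membrane genes, vkg came nearest to trol in this order, at rank 863 with r of 0.65. Col4a1 was at rank 2532 with r of 0.32. The r was negative for LanA (-0.25), LanB2 (-0.59), SPARC (-0.62) and LanB1 (-0.84). Ndg, with a mean under 100 normalized counts, was not compared. These 6 points share the normalization and are a description only.

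The collagen IV sums overlapped between feminized and control males. Col4a1 (FBgn0000299, chromosome 2L, 5029609 to 5037279) had 15620 and 15679 normalized counts in feminized brains, 14429 and 16470 in driver controls and 16421 and 13911 in transgene controls. vkg (FBgn0016075, 2L, 5012144 to 5028191) had 15674 and 16525 in feminized brains, 13929 and 15398 in driver controls and 16567 and 13496 in transgene controls. The feminized values fell inside the range of the controls for both genes. The log2 fold changes were 0.03 (standard error 0.11) for Col4a1 and 0.12 (standard error 0.11) for vkg.

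The laminin chains overlapped between the groups too. LanA (FBgn0002526, 3L, 6203831 to 6218022) had 802 and 1037 normalized counts in feminized brains, against 888 and 1366 in driver controls and 669 and 703 in transgene controls. LanB1 (FBgn0261800, 2L, 7811438 to 7820771) had 656 and 756 in feminized brains, 676 and 895 in driver controls and 659 and 900 in transgene controls. LanB2 (FBgn0267348, 3L, 9614914 to 9623980) had 280 and 355 in feminized brains, 305 and 413 in driver controls and 322 and 333 in transgene controls. For LanA, feminized against control males, the log2 fold change was 0.02 (standard error 0.28), for LanB1 it was -0.15 (0.15) and for LanB2 -0.11 (0.15).

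Nidogen and SPARC overlapped between the groups as well. Ndg (FBgn0026403, chromosome arm 2R) was near the limit of these libraries, with 22.1 and 23.5 normalized counts in feminized brains, 32.9 and 24.4 in driver controls and 22.8 and 21.5 in transgene controls. SPARC (FBgn0026562, 3R, 26869238 to 26871995) had 7237 and 7545 in feminized brains, 6656 and 8647 in driver controls and 8461 and 9231 in transgene controls. The log2 fold changes were -0.15 (standard error 0.26) for Ndg and -0.16 (standard error 0.13) for SPARC.

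Of the 7 genes beside trol, 0 passed an adjusted p of 0.1 in the comparison of feminized with control males (quasi-likelihood test of edgeR, Benjamini-Hochberg adjustment over all 9777 gene sums), each with an adjusted p of 0.999. The background was the same, since 0% of all gene sums were called. An unadjusted p below 0.05 was found for 0 of the 7 and for 458 of all gene sums, and DESeq2 called 0 of the 7 and 24 of all. The median log2 fold change of the 7 was -0.11, beside -0.01 over all gene sums. Without driver control replicate 1, which had the highest summed neuronal markers (2560 TPM, against 1717 to 2046 TPM in the other 5 libraries), SPARC passed with a log2 fold change of -0.24 (edgeR, adjusted p = 0.0998), where 2.46% of all gene sums were called.

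Among 13 tested transcripts of these 7 genes, 0 passed the threshold in edgeR, where 0.0141% of all 21208 transcripts were called, 0 had an unadjusted p below 0.05, against 1129 of all, and DESeq2 called 0 of them and 280 of all. The smallest unadjusted p was that of Col4a1-RC, with 4511 and 4120 normalized counts in feminized brains, above 2463 and 4030 in driver controls and 3662 and 2915 in transgene controls. It was the only 1 of the 13 whose feminized libraries lay above all controls, and 0 lay below, where 6.50% of all tested transcripts lay above and 8.38% below. Its log2 fold change of 0.40 (standard error 0.20) had an adjusted p of 0.973 in edgeR. Next in p were Col4a1-RB and vkg-RA, with log2 fold changes of -0.22 and 0.12. Transcript usage, the proportion in which the transcripts of a gene are present, was called by diffSpliceDGE of edgeR for 1.31% of 5109 genes. Beside trol, 5 of the genes could be tested (Col4a1, vkg, LanB1, Ndg and SPARC) and 0 were called, the lowest adjusted p in edgeR being 0.933 for Col4a1. Without adjustment 0 of the 5 and 472 of all genes had a p below 0.05, and DESeq2 was not run on usage.

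The comparison of the controls with each other was not the one trol was chosen on, though it uses the same control libraries. The genes were chosen with earlier results of these data known. Between the controls trol was tested as well. The trol gene sum did not pass, with a log2 fold change of -0.08 (standard error 0.19) in driver controls relative to transgene controls and, in edgeR, an adjusted p of 0.870. Of the 8 gene sums 0 passed, where 0.215% of all gene sums did, and 1 of 8 had an unadjusted p below 0.05, beside 754 of all. DESeq2 called 0 of the 8 and 95 of all. The median log2 fold change of the 8 was 0.02, beside 0.00 over all gene sums.

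**Figure D4:**
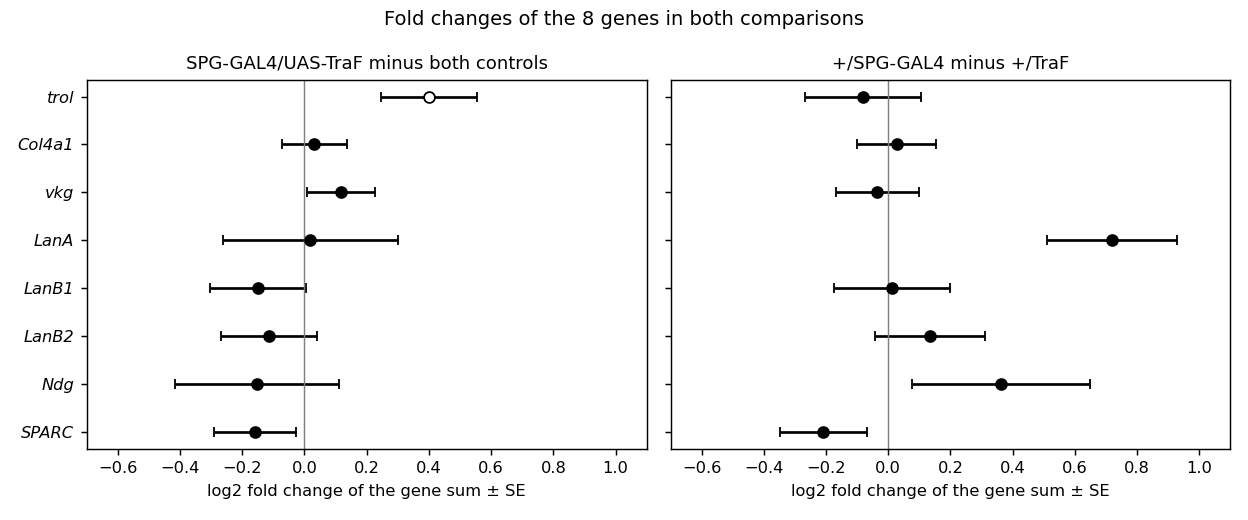
Log2 fold changes of gene sums (x axis) with standard errors (bars) for the 8 genes (y axis), SPG-GAL4/UAS-TraF minus both controls at the left and +/SPG-GAL4 minus +/TraF at the right. The open circle marks trol (0.40), chosen on that comparison and not tested in it. Its bar comes from the same fit and carries no test. LanA at the right (0.72) is farthest from 0 among the tested genes, and 0 of them passed the threshold.

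The gene with an unadjusted p below 0.05 between the controls was LanA, whose 888 and 1366 normalized counts in driver controls lay above the 669 and 703 in transgene controls. The log2 fold change was 0.72 (standard error 0.21) with an adjusted p of 0.482 in edgeR. With the replicate number added to the fit, LanA passed (edgeR, adjusted p = 0.0888), where 0.89% of all gene sums were called. LanA did not pass with size factors by median of ratios (edgeR, adjusted p = 0.460) or without the filter (edgeR, adjusted p = 0.485). DESeq2 did not call it either (adjusted p = 0.156). Leaving out 1 library at a time gave LanA log2 fold changes from 0.37 (without driver control replicate 2) to 1.00 (without driver control replicate 1). Without driver control replicate 2, SPARC had a log2 fold change of -0.41. All 7 hemocyte markers reached 1 TPM in at least 1 library, and their sum was 128 and 154 TPM in driver controls and 125 and 128 TPM in transgene controls, with the highest sum and the highest LanA in the same library, driver control replicate 2. In driver control replicate 1, where LanA was also above the transgene controls, 6 of the 7 markers were below both transgene controls, and the exception, crq, made up most of the sum (96.0 to 108 TPM over the 6 libraries). Their part in the result was not tested.

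The transcripts of Col4a1 differed in proportion between the controls. The 3 transcripts share a coding sequence of 5337 nt and differ in the first exon (202 nt in Col4a1-RA, 138 nt in Col4a1-RB and 21 nt in Col4a1-RC) and in the last exon (638, 803 and 454 nt in the same order). Col4a1-RA had 4120 and 3762 normalized counts in feminized brains, which carry driver and transgene, 4498 and 4494 in driver controls, and 2630 and 2144 in transgene controls. All 4 libraries with the driver were above both without it. This grouping was not among the planned comparisons and was not tested, and the share of all transcripts separated in this way was not counted. Its share of the Col4a1 sum was 26.4% and 24.1% in feminized brains, 32.4% and 26.8% in driver controls, and 15.9% and 15.2% in transgene controls. Col4a1-RB went the other way, with 6906 and 8257 normalized counts in driver controls and 10202 and 9057 in transgene controls. Col4a1-RC had 2463 and 4030 in driver controls and 3662 and 2915 in transgene controls, which overlap.

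Usage of the Col4a1 transcripts passed the threshold between the controls, with an adjusted p of 0.0596 in diffSpliceDGE of edgeR, 1 of 6 genes tested here in a comparison that called 4.66% of 5109 genes. On simulated data this test called more unchanged genes than its threshold implies. The usage of trol did not pass (edgeR, adjusted p = 0.346). With the replicate number added to the fit, Col4a1 usage did not pass (edgeR, adjusted p = 0.132), where 4.13% of all genes were called. The Col4a1 call was lost when feminized replicate 1 or 2 or transgene control replicate 1 or 2 was left out, where 3.10%, 3.05%, 2.02% and 3.63% of all genes tested were still called. By itself Col4a1-RA had a log2 fold change of 0.91 in driver controls relative to transgene controls (standard error 0.12) with an adjusted p of 0.317 in edgeR, while DESeq2 called it (adjusted p = 3.37e-07). For Col4a1-RB the log2 fold change was -0.34 (standard error 0.13, edgeR adjusted p = 0.661).

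**Figure D5:**
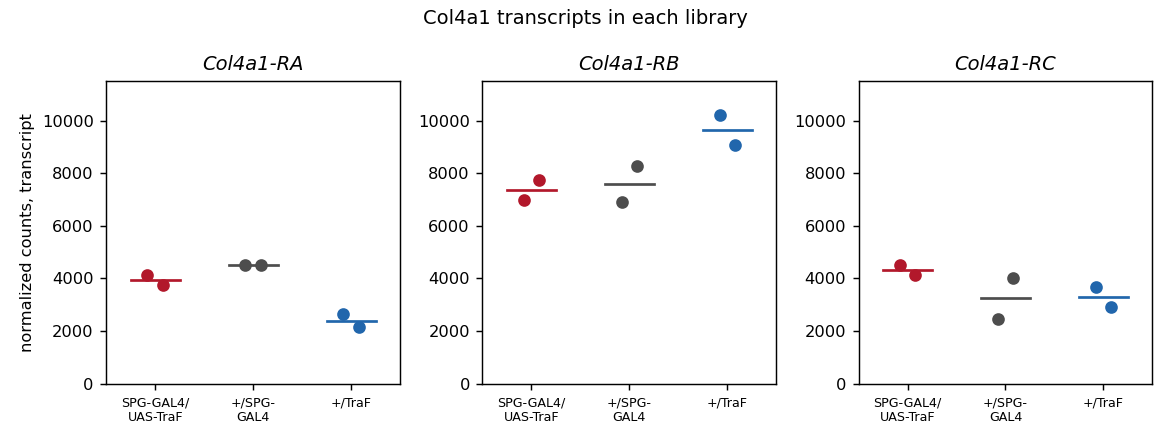
Normalized counts (y axis, from 0) of the 3 Col4a1 transcripts in SPG-GAL4/UAS-TraF, +/SPG-GAL4 and +/TraF males (x axis). Points are libraries and bars are means of 2. The 4 Col4a1-RA points of males with SPG-GAL4 (3762 to 4498) all lie above those of +/TraF males (2630 and 2144), a grouping that was not tested.

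Over all 25 tested transcripts of the 8 genes, 0 passed in edgeR between the controls, where 0.0377% of all transcripts were called. An unadjusted p below 0.05 was found for 4 of the 25 and 1567 of all, and DESeq2 called 2 of the 25 and 552 of all. Beside the Col4a1 transcripts these 4 were LanA-RA, the only transcript of its gene, and trol-RAY. trol-RAY was higher in driver controls (207 and 338 normalized counts) than in transgene controls (18.7 and 49.6). The difference was 2.99 on the log2 scale (SE 0.68), with an adjusted p of 0.431 in edgeR and 0.00600 in DESeq2. For trol-RAL between the controls, 1 library of 4 had counts.

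The other genes with several transcripts held 1 main form in most libraries. vkg-RA made up 97.4% to 99.6% of vkg, whose transcript vkg-RB had 152 normalized counts in transgene control replicate 2 and 0 elsewhere, and SPARC-RA 98.3% to 99.1% of SPARC. LanB1-RA held 73.8% and 59.8% of LanB1 in feminized brains and 49.6% to 81.2% in controls, and LanB2-RA held all of LanB2 apart from 26 estimated counts of LanB2-RB in feminized replicate 1. For Ndg the main form changed from library to library. Ndg-RA had all of the counts in feminized replicate 1, both driver controls and transgene control replicate 2, while Ndg-RC had 95.8% in feminized replicate 2 and all in transgene control replicate 1. The total was at most 32.9 normalized counts, and the forms share most of their sequence, so no statement about form can rest on it.

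Genes that act with these proteins were looked at as lists of receptors, collagen IV processing and secretion, other matrix proteins, proteases with their inhibitor and the lysyl oxidases, and heparan sulfate enzymes. Of 40 genes listed, 38 were in the table, with no lysyl oxidase among them, and 36 were tested. With edgeR 0 passed in feminized against control males (1 at an unadjusted p under 0.05) and 0 between the controls (5 at an unadjusted p under 0.05), where 0% and 0.215% of all gene sums were called and 458 and 754 of 9777 had an unadjusted p below 0.05. For the 36, the median log2 fold change was 0.01 in feminized against control males and 0.09 in driver against transgene controls, beside -0.01 and 0.00 over all gene sums.

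In feminized against control males the smallest p of the lists was that of a receptor. Itgbn, a beta integrin subunit, had 10.6 and 14.7 normalized counts in feminized brains, below 31.8 and 23.5 in driver controls and 31.1 and 21.5 in transgene controls. Its log2 fold change was -1.09 (SE 0.31) and its edgeR adjusted p was 0.847. The alpha subunits ItgaPS4 and if had log2 fold changes of -0.68 and 0.15. The 8 heparan sulfate enzymes, which build or modify the sugar chains Perlecan carries, lay between 0.00 and 0.08 in feminized against control males. The 6 tested collagen IV processing and secretion genes lay between -0.01 and 0.08. Between the controls the smallest p values were those of scb, an alpha integrin, with a log2 fold change of -0.42, AdamTS-A, a secreted metalloprotease, with 0.61, and Mmp1, a matrix metalloprotease, with -0.41. Their adjusted p values in edgeR were 0.281, 0.382 and 0.552.

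Markers of cells that supply or adjoin the basement membrane were summed in TPM. Hemocyte markers summed to 134 and 149 TPM in feminized brains and 125 to 154 TPM in controls. Within the fat body sum, apolpp was highest (242 and 231 TPM in feminized brains and 199 to 242 TPM in controls), while Lsp1alpha, Lsp1gamma and Fbp1 stayed under 1 TPM in all libraries. The SPG markers moody, Mdr65 and Gli summed to 172 and 169 TPM in feminized brains and 153 to 174 TPM in controls. The perineurial marker Tret1-1 was 139 and 158 TPM in feminized brains and 142 to 171 TPM in controls, and the pan-glial marker repo 102 and 110 TPM against 105 to 111 TPM. Tracheal markers summed to 10.4 and 9.85 TPM in feminized brains and 10.5 to 12.3 TPM in controls, and muscle markers to 15.2 and 10.5 TPM in feminized brains and 8.50 to 15.7 TPM in controls. Neuronal markers were present in all libraries, as the label brain requires.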

How the data were processed

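Poly-A RNA of 6 male brain libraries was sequenced as 75-base pairs, and the authors quantified transcripts with Kallisto. The deposited values are estimated counts, whole numbers for each transcript, and were not normalized. The Kallisto version and the transcript release are not given in the sources used here, and the authors' own tests used DESeq2. The members and gene lists were chosen with earlier results of these data known.

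All 6 columns were used. Transcripts were placed in genes with Ensembl release 115 of BDGP6.54 (28061 of 28071 matched), counts were summed per gene, and TPM was recomputed from annotated lengths. Transcripts, gene sums and transcript usage (diffSpliceDGE) were tested in R 4.3.3 with edgeR 4.0.16 (quasi-likelihood, TMM, the default filter on low counts, prior count 0.125, Benjamini-Hochberg, threshold 0.1), feminized against both controls pooled as in the study, and the controls against each other in a fit with 3 genotypes. Standard errors were derived from the log2 fold change and the F statistic of the same test. A floor of 3 counts served for folds against libraries at 0. Replicates are the labelled biological replicates, whose counts differed beyond sampling noise. Between the controls, p-values rest on the spread between the 2 libraries of each genotype in a fit of all 3 genotypes. The feminized libraries therefore enter that spread too. In feminized against control males the spread is that within the feminized libraries and within the 4 pooled controls. It therefore includes the difference between the control genotypes. The tests were tested on simulated data with a fixed seed of 7.

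All 8 genes, all tested trol transcripts, the main and called transcripts of the other genes and the 3 with the smallest p in each comparison were named. From the lists of interacting genes, called genes or else the 3 with the smallest p in each comparison were named. The alternatives tried were no filter, size factors by median of ratios, DESeq2 1.42.0, an adjusted p below 0.05, a replicate block, leaving out each library, and CPM in place of TPM.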

Additional observations from a re-analysis of the deposited data

Results flagged for a closer look

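Among the 8 gene sums and 25 tested transcripts, 33 features in all, 5 transcripts had 1 control library far from the other 3, by Dixon's criterion for a group of 4. For 2 of the 5 the other 3 controls were at 0, so that any count in the fourth meets the criterion and the marking says nothing further. These are trol-RAL, with 5.75 normalized counts in driver control replicate 2, and Ndg-RC, with 22.9 in transgene control replicate 1. trol-RAL passed the filter only through the feminized libraries. Of the other 31 features 3 were marked, and chance marks about 1 in 20 such groups. vkg-RC had 408 normalized counts in driver control replicate 2 and 71.7 to 122 in the others. LanB1-RB had 122 normalized counts in driver control replicate 1 and 334 to 367 in the others, and LanB1-RA had 329 in transgene control replicate 1 and 528 to 554 in the others. The 5 are single transcripts, and 0 of the 8 gene sums were so marked.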

How the results depend on the processing

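For feminized against control males, the count of called gene sums among the 7 genes beside trol was 0 and ranged from 0 to 1 when libraries were left out (SPARC, without driver control replicate 1, where 2.46% of all were called), and the count for transcript usage likewise from 0 to 1 (LanB2, without feminized replicate 2, where LanB2-RB of feminized replicate 1 stood alone and 2.23% of all genes were called). The transcript count stayed at 0 in every alternative. Between the controls, the count of called gene sums was 0 and ranged from 0 to 2 when libraries were left out, and that for transcript usage was 1 and ranged from 0 to 1. DESeq2 called 2 transcripts there, Col4a1-RA and trol-RAY, and 2.49% of all. With an adjusted p below 0.05 the usage count was 0, beside 2.82% of all genes. Correlations of replicate deviations were -0.06 and -0.05 between feminized males and the driver and transgene controls, in that order. Between the control genotypes the correlation was 0.34. The labels do not say whether libraries with the same replicate number were handled together. The paper states that each dissection sitting covered all genotypes with equal numbers of flies. It ties no replicate number to a sitting. A shared replicate effect was not tested. With the replicate block 1 gene sum was called between the controls (LanA, edgeR adjusted p = 0.0888, with 0.89% of all called) and 0 of the genes for usage (Col4a1, edgeR adjusted p = 0.132, with 4.13% of all called). Per count (CPM) trol held 49.1% of the 8 genes, against 20.7% per length (TPM), since its transcripts are long.

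Of 319 alternatives for single genes and transcripts, 19 turned a direction, 0 of them past the threshold under that alternative. Leaving out libraries gave log2 fold changes in feminized against control males from -0.28 to 0.051 for LanB2, from -0.16 to 0.29 for LanA and from -0.012 to 0.069 for Col4a1, and without feminized replicate 1 trol-RAO was at -0.12 and trol-RAX at 0.0067. Between the controls the ranges were -0.10 to 0.34 for LanB2, -0.092 to 0.15 for Col4a1, -0.18 to 0.12 for vkg, -0.21 to 0.25 for LanB1, -0.30 to 0.17 for trol and -0.42 to 0.30 for Col4a1-RC. Without the filter LanB1 was at -0.0028 there. The cause was not tested. For the trol gene sum, leaving out libraries gave log2 fold changes from 0.33 to 0.50. This range is a description and no support, since trol was chosen on this comparison in these same libraries. With 2 libraries a genotype, leaving 1 out assumes that the lone library varies like the others, and transcripts with few counts, such as those of Ndg, are limited by depth.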
